A study of Mus musculus with 2 samples.

Results

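The VEGF and angiopoietin signalling genes described here are 10 genes that were picked by symbol from the 32285 genes of the feature table. They are the ligands Vegfa, Vegfc and Pgf, the VEGF receptors Kdr, Flt1 and Flt4, the angiopoietins Angpt1, Angpt2 and Angpt4, and the angiopoietin receptor Tek. On the mouse genome build GRCm38.p6 the annotated genes span chr17:46016993-46032377 (Vegfa), chr8:54077532-54186454 (Vegfc), chr12:85166637-85177785 (Pgf), chr5:75932827-75979072 (Kdr), chr5:147561604-147726438 (Flt1), chr11:49609679-49652739 (Flt4), chr15:42424667-42676977 (Angpt1), chr8:18690263-18741562 (Angpt2), chr2:151911207-151945337 (Angpt4) and chr4:94739086-94874976 (Tek). The rule used symbols and no measured value, though the list was chosen with earlier results of these data known. All 10 genes had counts in both libraries. VEGF ligands are secreted proteins that act on receptor tyrosine kinases of the endothelium: Vegfa signals mainly through Kdr, Vegfa and Pgf both bind Flt1, and Vegfc drives lymphatic growth through Flt4. Angiopoietins act on Tek, where Angpt1 steadies vessels and Angpt2 modulates or blocks that signal depending on context. In skin the vessel network around the follicle widens as hair grows and shrinks as growth stops, and Vegfa made in and around the follicle is known to take part.

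Both groups were male C3H/HeN mice that were 7 weeks old when dosing began and 9 weeks old when the skin of the back was taken. Con mice had vehicle, and TP mice had 0.5 mg of testosterone propionate each day under the skin, an androgen ester used here to model androgenetic alopecia. Skin from 15 mice went into 1 pool and 1 library per group, so animals cannot be seen apart, library and treatment cannot be told apart, and no test, p-value or standard error is given. The antibody group of the study (TP + Ab) is not analysed here.

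After the study's limits on genes and mitochondrial counts and the removal of doublets, 39076 Con cells held 106495065 UMIs (unique molecular identifiers, 1 per captured transcript; median 2054 per cell) and 18542 TP cells held 133787395 UMIs (median 4890). Of all deposited barcodes, 7.58% in Con and 22.6% in TP exceeded the mitochondrial limit. The kept cells of both libraries had 184 barcodes in common, which is 0.471% of Con and 0.992% of TP cells. Clusters were grouped into 19 classes from marker lists, each written as "-like", and clusters with 41.8% of Con cells and 16.7% of TP cells matched no list well enough to be named.

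A level below is the pooled UMI count of a gene in a group of cells as counts per 1e+06 UMIs (CPM) of the same cells. The assay reads the end of each transcript and levels are not scaled to length, so a level is compared only for 1 gene between cells or libraries. A ratio is the TP level over the Con level, followed in parentheses by its 95% interval. These intervals hold counting error alone, with each UMI taken as independent. They leave out how much cells, mice, tissue preparation and libraries vary. A gene was counted in a group of cells where it had at least 50 UMIs in both libraries together, and was called higher or lower where it was at least 2-fold apart with 1 UMI added to each library.

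Over all kept cells, Pgf, Flt4 and Tek were called higher in TP, Angpt2 was called lower, and the other 6 genes lay within 2-fold. For comparison, 18.8% of the 17581 genes counted in all kept cells were called (8.06% higher and 10.8% lower). The log2 ratio had a median of -0.05 over the 10 genes and of -0.24 over all genes counted. Scaling by edgeR TMM factors moved that median of all genes to -0.0046 and left 3 genes higher and 0 lower, since Angpt2 then lay inside 2-fold (log2 -0.85), while 11% of all genes were called higher and 6.23% lower. Averaging over cells, or thinning each cell to 1000 UMIs, gave 4 higher and 0 lower, where 11.4% and 10.9% of all genes were called higher.

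Pgf, a ligand of Flt1, had 98 UMIs in Con and 406 in TP, or levels of 0.920 and 3.03, with a ratio of 3.30 (2.64 to 4.16). Flt4, the receptor of Vegfc, had 36 and 204 UMIs (0.338 and 1.52), with a ratio of 4.51 (3.15 to 6.62). Tek had 165 and 511 UMIs (1.55 and 3.82), with a ratio of 2.47 (2.06 to 2.96). These 3 genes had the highest ratios of the 10. Angpt2 had 725 and 428 UMIs (6.81 and 3.20), a ratio of 0.470 (0.416 to 0.530). Vegfa, at 1956 and 2284 UMIs (18.4 and 17.1), was close to level at a ratio of 0.929 (0.875 to 0.988), and under TMM scaling its log2 ratio was 0.13. Vegfc (334 and 376 UMIs) had a ratio of 0.896 (0.771 to 1.04), Angpt4 (236 and 299) of 1.01 (0.847 to 1.20) and Kdr (267 and 379) of 1.13 (0.964 to 1.33), intervals that all span 1. Angpt1 (1235 and 1225 UMIs) and Flt1 (410 and 368) had lower levels in TP, with ratios of 0.790 (0.729 to 0.855) and 0.714 (0.619 to 0.824). Several of these directions turned with the processing: over the alternatives the log2 ratio ran from -0.72 to 0.63 for Flt1, from -0.36 to 1.28 for Kdr, from -0.61 to 0.35 for Vegfc and from -0.69 to 0.14 for Angpt1.

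These totals mix the level in each cell type with the number of cells of that type. When every cluster was given its Con share of UMIs in both libraries, Pgf still differed by 2.25-fold and Flt4 by 1.88-fold, whereas Tek came to 1.10 and Angpt2 to 0.747. At the TP shares the ratios were 2.28 for Pgf, 2.29 for Flt4, 0.845 for Tek and 0.841 for Angpt2. Pgf thus stayed past 2-fold under both makeups, Flt4 under 1 of them, and Tek and Angpt2 under neither. Flt4 rested on few cells in this total: removing 15% of barcodes as doublets in place of 7.5% left 20 Con and 25 TP UMIs and a log2 ratio of -0.06.

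**Figure D1:**
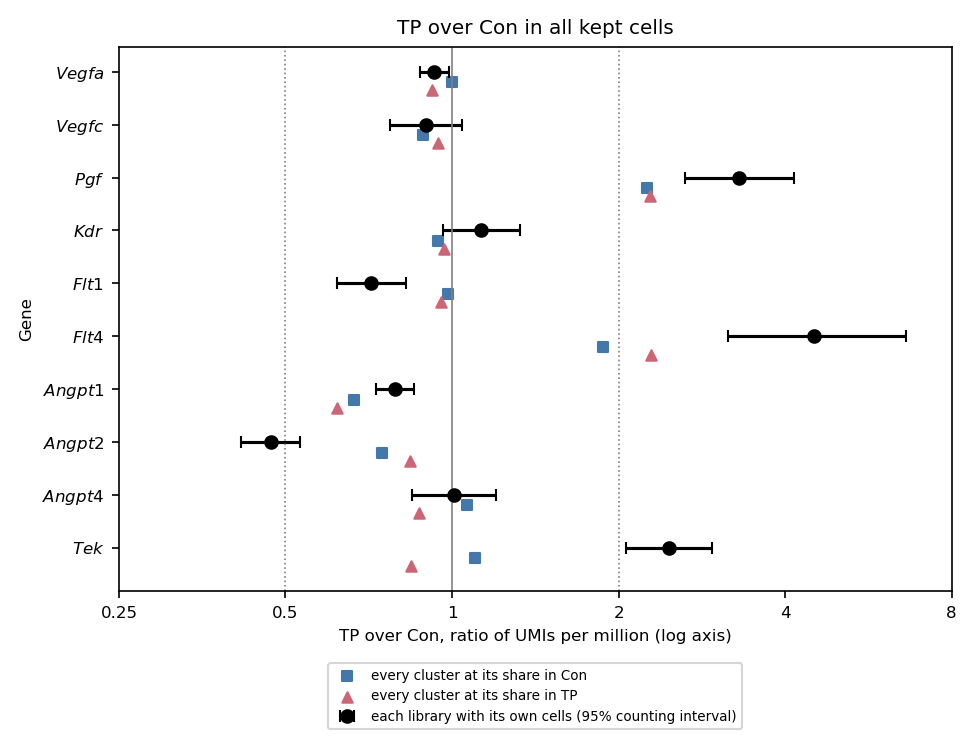
Ratio of the TP level over the Con level on a log axis for the 10 genes in all kept cells, with black points and bars for each library with its own cells (95% counting interval), and squares and triangles for every cluster at its Con or TP share. The black points of Pgf, Flt4 and Tek lie above 2, but only Pgf keeps both other marks above 2, and those of Tek, at 1.10 and 0.845, lie near 1.

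The cell classes that held each gene's UMIs differed between libraries. Dermal fibroblast-like cells, whose 5 clusters carried the fibroblast collagen and Dcn markers, made up 0.317% of Con and 2.72% of TP cells, with median depths of 3184.5 and 8135 UMIs. They held 23.0% of the Tek UMIs in Con and 66.7% in TP, 9.15% and 45.3% of Angpt1, 13.6% and 41.8% of Angpt4, and 5.09% and 35.1% of Vegfc. Dermal papilla-like cells, the signalling core at the base of the follicle, were 10.5% of Con and 8.74% of TP cells. Their share of Angpt1 UMIs was 78.0% in Con and 38.1% in TP, and of Vegfa UMIs 41.9% and 17.3%. Lymphatic endothelial-like cells were 0.146% and 0.847% of cells and held 52.8% and 92.2% of Flt4.

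**Figure D2:**
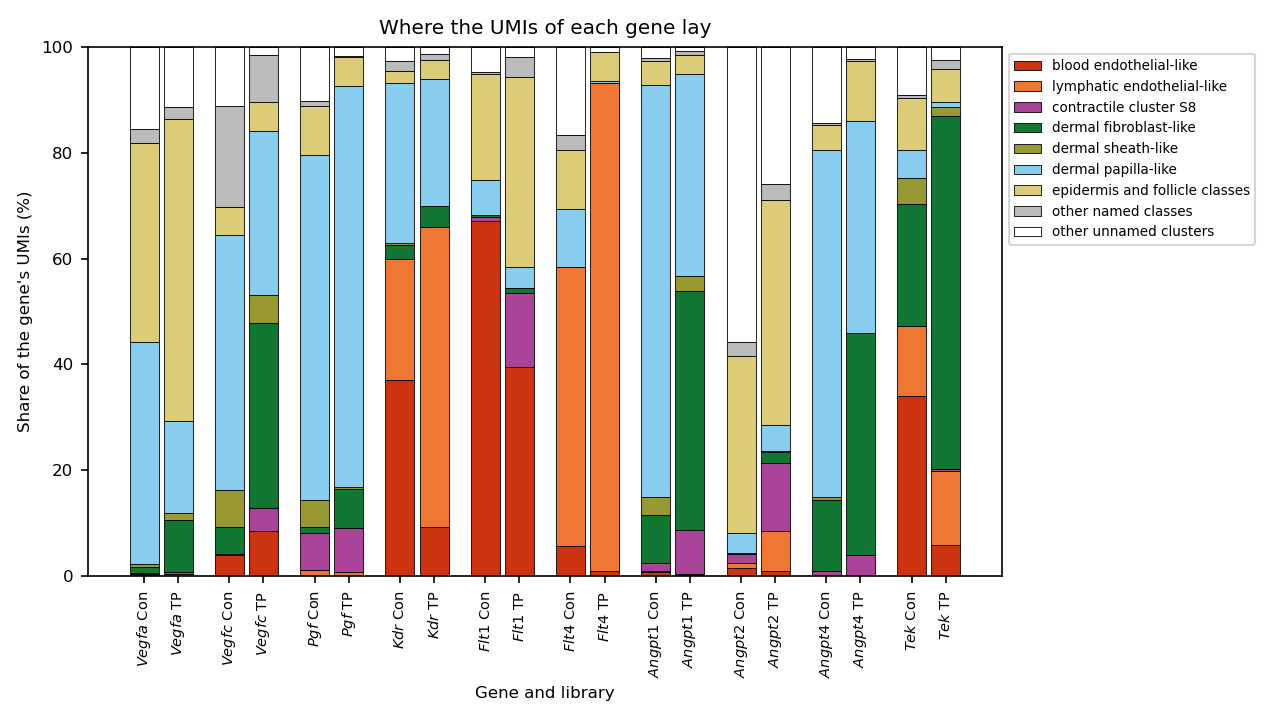
Stacked bars of the share (%) of each gene's UMIs by cell class, with 1 bar per gene and library and white for unnamed clusters other than S8. Flt4 lies mostly in lymphatic endothelial-like cells (52.8% in Con and 92.2% in TP), Tek changes from 23.0% to 66.7% dermal fibroblast-like, and Angpt1 from 78.0% to 38.1% dermal papilla-like.

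The 3 VEGF receptors had their highest levels in endothelial-like cells, with a different split between blood and lymphatic cells for each. Endothelial-like cells were 1 blood cluster (68 Con and 36 TP cells, median 2414.5 and 1264 UMIs) and 1 lymphatic cluster (57 and 157 cells, median 1513 and 1843). All 9 general endothelial markers, such as Pecam1 and Cdh5, were present in the blood cluster, where their summed level was 4388 in Con and 5073 in TP. The lymphatic cluster had summed endothelial levels of 3087 and 3439 and held Prox1, Lyve1, Mmrn1, Ccl21a and Reln, while in the blood cluster these 5 lymphatic markers summed to 0 and 20.3.

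Flt1 UMIs were found in the blood cluster and not in the lymphatic one. The gene had 275 UMIs in Con and 145 in TP in blood endothelial-like cells, at levels of 1338 and 1468, and 0 UMIs in lymphatic endothelial-like cells of either library. Set against a floor of 3 UMIs in the lymphatic cluster of each library, the blood level was at least 58.6-fold higher in Con and at least 231-fold higher in TP. Kdr showed no such split, with 99 and 35 UMIs in blood (482 and 354) and 61 and 215 in lymphatic cells (464 and 456). Its blood-over-lymphatic ratio was 1.04 (0.747 to 1.45) in Con and 0.777 (0.527 to 1.11) in TP.

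Flt4 had the opposite pattern to Flt1. Blood endothelial-like cells held 2 Flt4 UMIs in each library, whereas lymphatic endothelial-like cells held 19 in Con and 188 in TP. The lymphatic level was 14.8-fold (3.58 to 131) the blood level in Con and 19.7-fold (5.38 to 164) in TP. Tek was present in both, at 56 and 30 UMIs in blood (272 and 304) and 22 and 71 in lymphatic cells (167 and 151). The blood level of Tek was 1.63-fold (0.979 to 2.80) the lymphatic one in Con and 2.02-fold (1.27 to 3.13) in TP.

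The receptors also shared cells. Of the 68 Con blood endothelial-like cells, 37 had a Kdr UMI, 52 a Flt1 UMI and 35 both, and of the 36 in TP the counts were 10, 18 and 9. Among lymphatic cells, Kdr and Flt4 were found together in 8 of 57 Con and 56 of 157 TP cells. After each cell was thinned to 1000 UMIs, which left 54 Con and 23 TP blood cells, 66.7% (52.5 to 78.9) and 69.6% (47.1 to 86.8) of them had a Flt1 UMI, against 76.5% and 50% before thinning. In inner root sheath-like cells, which should lack Flt1 and had median depths of 1806 and 3700.5 UMIs, the thinned shares were 0.0469% and 0%, the latter from 0 of 866 cells, which allows a share of up to 0.346%.

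**Figure D3:**
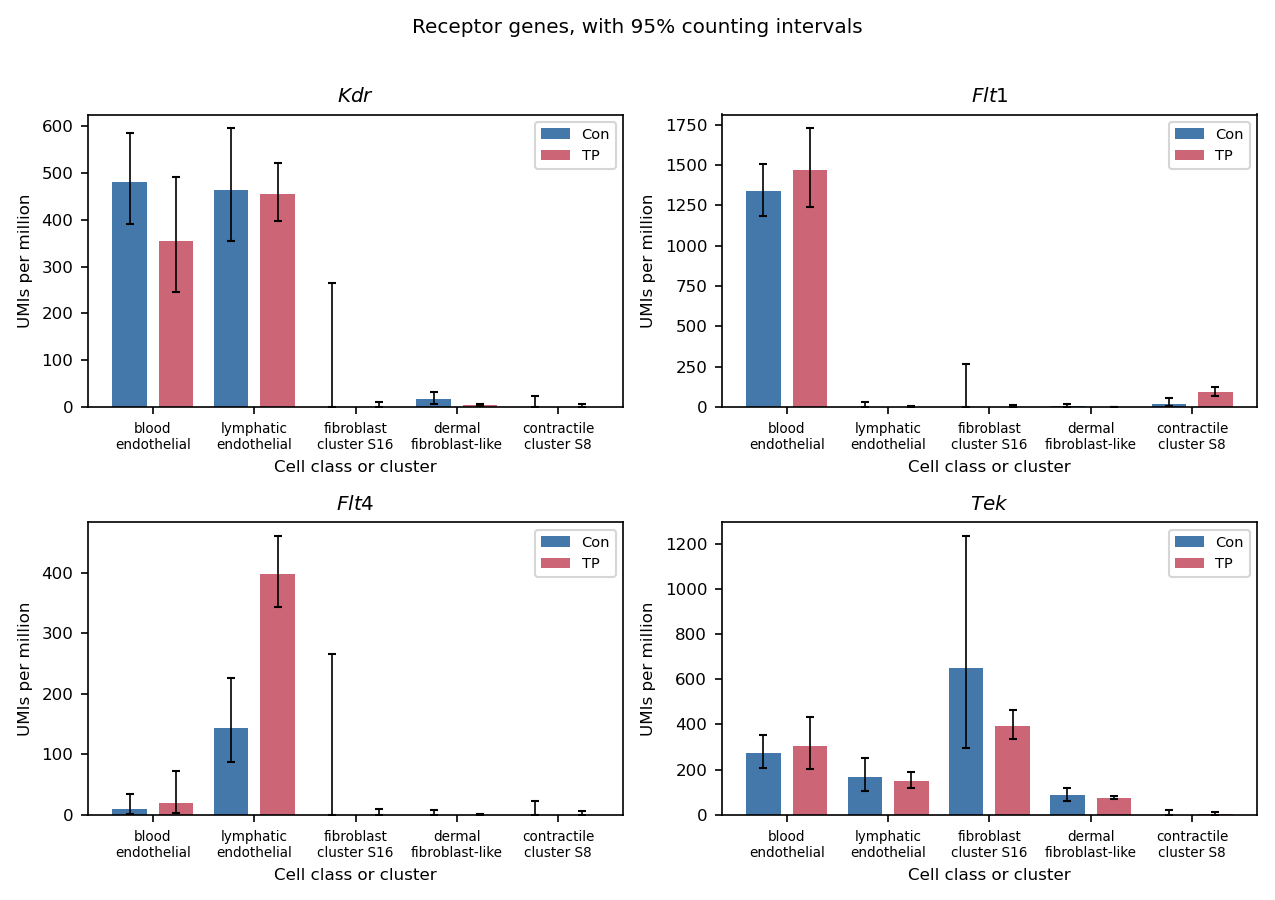
Levels of Kdr, Flt1, Flt4 and Tek (CPM, axes from 0) in endothelial-like classes, dermal fibroblast-like cells, their cluster S16 and the contractile cluster S8, with bars for the Con and TP libraries and lines for 95% counting intervals. Flt1 stands highest in blood cells (1338 and 1468), Flt4 in lymphatic cells (144 and 399), Kdr in both, and Tek also in S16 (649 and 396), where the Con value comes from 4 cells.

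The stretches before the start sites of the 4 receptor genes are shown because these genes had their highest class levels in endothelial-like cells. Background knowledge holds that ETS factors, which bind a GGAA core, act widely in endothelium. The 250 bases before the start in the RefSeq promoter table of GRCm38.p6 are given 5′ to 3′ on the gene's strand, with GGAA or its reverse complement TTCC in capitals. For Kdr (chr5:75978456-75978705, minus strand), Flt1 (chr5:147726012-147726261, minus strand) and Tek (chr4:94739039-94739288, plus strand) that start lies inside the annotated gene span, and for Flt4 (chr11:49609429-49609678, plus strand) it is the start of the span. The reference is not of the C3H strain.
Kdr: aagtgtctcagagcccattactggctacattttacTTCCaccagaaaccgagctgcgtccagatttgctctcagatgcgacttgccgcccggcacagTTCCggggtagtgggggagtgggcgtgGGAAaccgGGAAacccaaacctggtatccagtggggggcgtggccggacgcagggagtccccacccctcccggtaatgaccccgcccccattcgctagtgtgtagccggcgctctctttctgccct
Flt1: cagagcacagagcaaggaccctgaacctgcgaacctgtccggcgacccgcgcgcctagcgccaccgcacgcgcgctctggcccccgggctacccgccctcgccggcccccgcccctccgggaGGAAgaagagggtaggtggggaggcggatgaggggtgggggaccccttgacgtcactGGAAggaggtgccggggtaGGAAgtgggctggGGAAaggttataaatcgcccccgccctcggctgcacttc
Flt4: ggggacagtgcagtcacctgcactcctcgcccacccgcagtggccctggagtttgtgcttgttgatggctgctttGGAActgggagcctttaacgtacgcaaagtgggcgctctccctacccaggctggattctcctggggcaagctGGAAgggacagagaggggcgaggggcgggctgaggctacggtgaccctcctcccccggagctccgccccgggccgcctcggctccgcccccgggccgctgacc
Tek: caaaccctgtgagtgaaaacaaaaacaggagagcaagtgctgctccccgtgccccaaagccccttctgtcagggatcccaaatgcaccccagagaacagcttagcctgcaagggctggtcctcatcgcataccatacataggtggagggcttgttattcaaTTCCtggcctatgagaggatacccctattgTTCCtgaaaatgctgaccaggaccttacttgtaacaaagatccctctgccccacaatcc
Kdr and Flt1 each held 4 matches, a number that 33.4% of the 32851 promoters in the table reach, and Flt4 and Tek each held 2, which 76.8% reach. At least 1 match was present in 93.4% of all promoters.

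Within endothelial-like cells taken as a whole, 5 of the 10 genes were counted, with Flt4 called higher and Flt1 called lower in TP, and 11.2% of the 3918 genes counted there were called. Flt1 had 275 UMIs in Con and 145 in TP (levels of 816 and 254), a ratio of 0.312 (0.253 to 0.383). The makeup of the class differed too: it was 68 blood and 57 lymphatic cells in Con but 36 and 157 in TP. Inside the blood cluster, which holds every one of those UMIs, the Flt1 ratio was 1.10 (0.891 to 1.35), though averaging over cells gave a log2 ratio of -0.68 and thinning -0.25. With both clusters at their Con shares of UMIs the log2 ratio of Flt1 in endothelial-like cells was 0.13, in place of -1.68.

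Inside blood endothelial-like cells, 3 genes were counted and 0 called, where 10.3% of the 1224 genes counted were called. Kdr had a ratio of 0.736 (0.486 to 1.09), which came to a log2 ratio of -1.06 when averaged over cells. Tek had a ratio of 1.12 (0.691 to 1.77), and its direction turned in 4 of 9 alternatives, to a log2 ratio of -1.23 with 15% of barcodes removed as doublets. That removal left 22 Con and 4 TP Tek UMIs in this cluster, below the count needed, so it says little about Tek. Vegfc, at 13 and 32 UMIs, was below the count needed, and its levels were 63.2 and 324, a ratio of 5.12 (2.62 to 10.6). Those UMIs came from 6 of 68 Con cells and 8 of 36 TP cells, and after thinning the shares of cells with Vegfc were 7.41% (2.06 to 17.9) and 21.7% (7.46 to 43.7), which overlap. Removing 15% of barcodes as doublets left 5 of the 13 Con and 7 of the 32 TP Vegfc UMIs, while 34 of 68 and 26 of 36 cells remained. Markers of other cells differed in this cluster as well, with summed levels in Con and TP of 710 and 233 for the 6 dermal sheath markers, 861 and 597 for the 7 of smooth muscle and pericytes, and 77.8 and 20.3 for the 8 of the papilla, and their part in these values was not tested. Vegfa and Angpt1 had at most 8 UMIs per library in this cluster, and Pgf and Angpt4 had 0.

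Inside lymphatic endothelial-like cells, 3 genes were counted and 1 was called higher, where 7.44% of 2608 genes were called (4.33% higher). The called gene was Flt4, at levels of 144 in Con and 399 in TP and a ratio of 2.76 (1.72 to 4.69). Kdr and Tek were near level, at 0.984 (0.737 to 1.33) and 0.901 (0.552 to 1.53), though the log2 ratio of Tek came to -1.35 with 15% of barcodes removed as doublets. That removal left 10 Con and 4 TP Tek UMIs in this cluster, below the count needed, so it says little about Tek. After thinning to 1000 UMIs, 11.6% (3.89 to 25.1) of 43 Con cells and 31.0% (23.2 to 39.7) of 129 TP cells had a Flt4 UMI, and 22.8% and 49.7% had one before thinning. None of 6400 Con and 866 TP thinned inner root sheath-like cells had one, which allows shares of up to 0.0469% and 0.346%.

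The lymphatic markers moved with Flt4 in that cluster, and their part in the result was not tested. Their summed level was 6714 in Con and 16051 in TP, and all 5 had ratios with intervals above 1, from Prox1 at 1.27 (1.01 to 1.62) to Lyve1, which had 1 and 346 UMIs. Removing 15% of barcodes as doublets left 39 of 57 Con and 44 of 157 TP lymphatic cells, and the log2 ratio of Flt4 over the alternatives ran from 0.60 to 1.47, past 2-fold in 8 of 9.

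Tek, best known as an endothelial receptor, was also present in fibroblast-like cells. It had 38 UMIs in Con and 341 in TP there, at levels of 87.0 and 77.1, and the ratio of 0.886 (0.633 to 1.27) was within 2-fold. Of the fibroblast-like cells, 26 of 124 in Con and 150 of 504 in TP had a Tek UMI. After thinning the shares were 8.87% (4.51 to 15.3) and 7.58% (5.42 to 10.3), against 0.0469% (0.00967 to 0.137) and 0.115% (0.00292 to 0.642) of inner root sheath-like cells. Of the cells with a Tek UMI before thinning, 0 in Con and 1 in TP also had a Pecam1 or Cdh5 UMI, against 27 of 32 and 10 of 11 Tek-positive blood endothelial-like cells. A UMI of any of the 9 endothelial markers was present in 8 of the 26 and 61 of the 150, and in 33 of 124 and 222 of 504 fibroblast-like cells with or without Tek.

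The highest Tek level among the fibroblast clusters was that of S16, a small cluster led by Pi16, C3 and Ebf2 with 4 Con and 56 TP cells. It held 9 of the 38 Tek UMIs of the class in Con and 152 of 341 in TP, at levels of 649 (297 to 1231) and 396 (335 to 464), and 4 of 4 and 47 of 56 of its cells had a Tek UMI. The TP level in S16 overlapped that of blood endothelial-like cells at 304 (205 to 434). In S16 6 of the 9 endothelial markers, Pecam1, Cdh5 and Cldn5 among them, had 0 UMIs in both libraries. The other 3, Plvap, Eng and Ecscr, summed to 144 and 83.3, and 18 of the 47 Tek-positive TP cells had a UMI of at least 1 of them, while the 7 fibroblast markers summed to 20613 and 23826. The neighbouring Pi16 and Ogn cluster S9 had Tek levels of 116 and 94.9 (16 and 93 UMIs), and the collagen-rich cluster S5, with 1 and 46 UMIs, had 21.3 in TP.

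**Figure D4:**
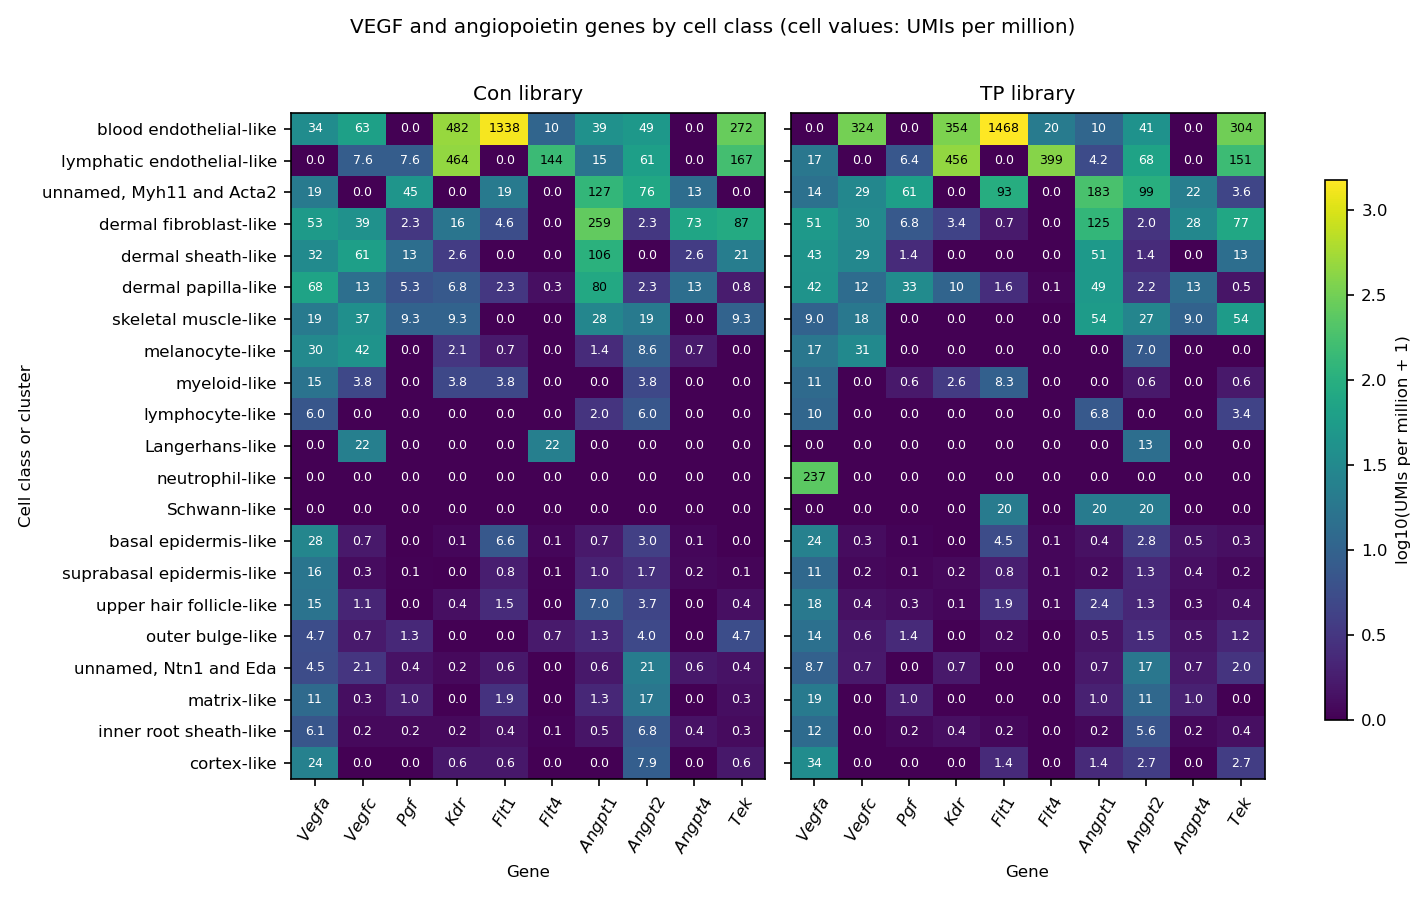
Heat map of the levels of the 10 genes (number in each field, CPM; colour on a log10 scale) in 19 cell classes and 2 unnamed clusters, with the Con library on the left and the TP library on the right. Flt1 is highest in blood endothelial-like cells (1338 and 1468), Flt4 in lymphatic ones (144 and 399), and Angpt1 and Angpt4 are high in fibroblast-like cells (259 and 125, 73.3 and 28.3).

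Outside the endothelium, 27 of 170 pairs of class and gene were counted, 2 were called higher and 3 lower, against 9.28% of 116566 pairs over all genes (2.95% higher and 6.32% lower). The 5 pairs were Pgf in papilla-like and Vegfa in outer bulge-like cells, both higher in TP, and Angpt1 and Angpt4 in fibroblast-like and Angpt1 in dermal sheath-like cells, all lower.

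Pgf in dermal papilla-like cells differed most. It had 64 UMIs in 4101 Con cells and 308 in 1621 TP cells, or levels of 5.34 and 32.6, a ratio of 6.10 (4.65 to 8.12), where 3.99% of 12955 genes were called higher. The papilla-like clusters that held most UMIs differed between libraries: C10, led by Ndnf, and C11, led by a and Adgrb3, had 46.0% and 47.0% of the class in Con, and 13.0% and 74.8% in TP. Pgf was higher in TP within each, at 4.72 and 11.4 in C10 (26 and 14 UMIs, ratio 2.42, 1.17 to 4.81) and 5.69 and 19.4 in C11 (32 and 137 UMIs, ratio 3.41, 2.31 to 5.18).

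A further source of Pgf was C26, a small cluster led by Dkk2, Gpc5 and Igfbp3 with 26 Con and 303 TP cells and no papilla marker among its leading 10 genes, though all 8 were detected. These 8 markers summed to 1636 in Con and 1414 in TP, against 8124 and 8570 in C10 and 11965 and 7196 in C11. The Pgf levels of C26 were 73.3 (3 UMIs) and 165 (156 UMIs), a ratio of 2.25 with a lower bound of 0.755. C26 thus held 3 of the 64 Con and 156 of the 308 TP Pgf UMIs of the class. Without C26 the log2 ratio of Pgf in the class was 1.79 instead of 2.59. Of C26 cells in TP, 19.1% (14.9 to 24.0) had a Pgf UMI, and 9.22% (6.11 to 13.2) after thinning. Lymphocyte-like cells, used as a low-count reference, had 0 thinned cells with Pgf in both libraries, of 225 in Con and 96 in TP, with median depths of 1554 and 2212 UMIs, which allows up to 1.33% and 3.12%. Over the whole papilla-like class in TP the thinned share was 3.10% (2.29 to 4.10). That is not above what the 96 lymphocyte-like cells allow. It is above the limit of 0.346% from 0 of 866 thinned inner root sheath-like cells in TP, a class that was not the reference chosen for Pgf. In Con the thinned share of papilla-like cells was 0.428% (0.245 to 0.694), also not above what the lymphocyte-like cells allow.

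Vegfa was counted in both stromal and epithelial classes. In papilla-like cells it had 820 and 396 UMIs, at levels of 68.5 and 41.9, and a ratio of 0.612 (0.542 to 0.691) that stayed within 2-fold. Both large papilla clusters had the lower level in TP, at 91.9 and 63.7 in C10 and 52.9 and 40.6 in C11. The 8 papilla markers summed to 11965 in Con and 7196 in TP in C11, and to 8124 and 8570 in C10, and their part in the values of this class was not tested. Suprabasal epidermis-like cells had 309 and 581 UMIs (16.1 and 10.7), a ratio of 0.668 (0.581 to 0.770), and basal epidermis-like cells had 205 and 354 (27.5 and 23.5), a ratio of 0.855 (0.718 to 1.02). Fibroblast-like cells were at 52.7 and 51.3.

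Follicle epithelium had ratios of Vegfa on the other side of 1. Outer bulge-like cells, the stem cell region of the follicle, had 7 UMIs in Con and 117 in TP, at levels of 4.71 and 13.8, a ratio of 2.93 (1.38 to 7.46) where 2.91% of 10867 genes were called higher. Inner root sheath-like cells had 97 and 65 UMIs (6.08 and 11.7), a ratio of 1.93 (1.39 to 2.67) that passed 2-fold (2.09) when genes were sorted another way before clustering. Upper hair follicle-like cells were at 15.1 and 18.3, with a ratio of 1.21 (0.851 to 1.76). Neutrophil-like cells had 0 Vegfa UMIs in 9 Con cells and 13 in 40 TP cells, the highest class level in TP at 237 (126 to 405). The bulge value rests on 7 Con UMIs and was past 2-fold in 6 of 9 alternatives. Thinned shares of cells with Vegfa were 6.71% (5.93 to 7.56) of Con papilla-like cells against 0 of 225 lymphocyte-like cells, and 5.19% (3.42 to 7.51) of TP fibroblast-like cells against 2.08% (0.253 to 7.32), which overlap.

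Vegfc, the lymphatic ligand, was spread over stroma and melanocytes. It had 161 and 116 UMIs in papilla-like cells (13.4 and 12.3), 17 and 132 in fibroblast-like cells (38.9 and 29.8), and 58 and 31 in melanocyte-like cells (41.5 and 31.0). The ratios of these 3 classes lay between 0.746 and 0.913, with intervals that span 1. In dermal sheath-like cells the levels were 60.8 and 28.9 from 23 and 20 UMIs, in a cluster whose summed fibroblast markers had a level of 6922 in Con and 18634 in TP.

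**Figure D5:**
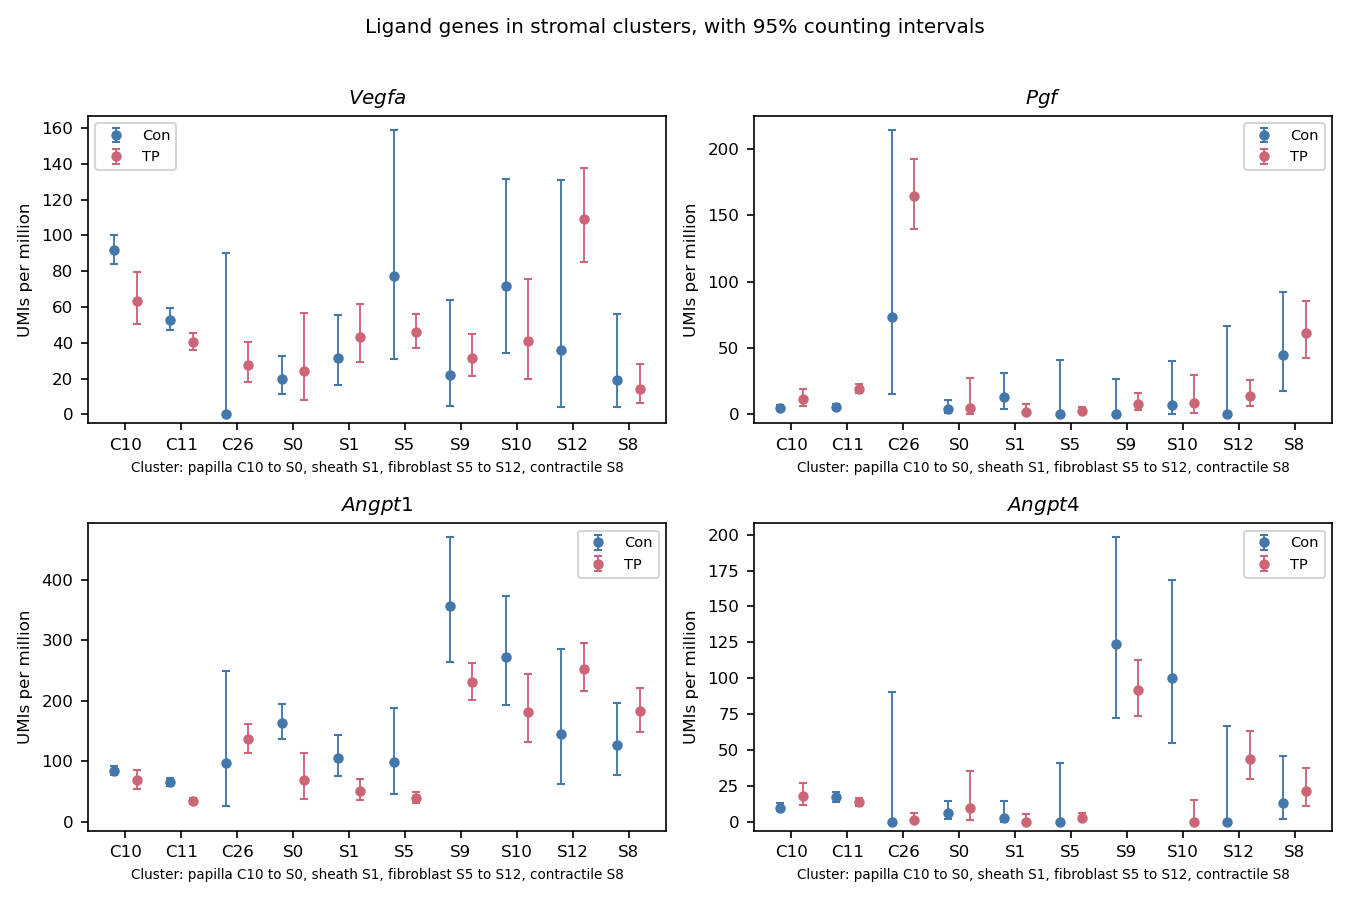
Levels of Vegfa, Pgf, Angpt1 and Angpt4 (CPM) in 10 stromal clusters, with points for the Con and TP libraries and lines for 95% counting intervals, without S16, whose Con value rests on 4 cells. Pgf stands high in C26 in TP (165) and in S8, Vegfa in C10 and S12, and Angpt1 and Angpt4 in the fibroblast cluster S9 (357 and 231, 124 and 91.8).

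Angpt1, the main Tek agonist, had lower levels in TP in fibroblast-like, dermal sheath-like and papilla-like cells. The contractile cluster S8, led by Myh11, Tagln and Acta2, had the higher level in TP, at 127 and 183 (20 and 102 UMIs), a ratio of 1.43 (0.882 to 2.45). In fibroblast-like cells it had 113 UMIs in Con and 555 in TP, at levels of 259 and 125, a ratio of 0.485 (0.395 to 0.599). In dermal sheath-like cells it had 40 and 35 UMIs (106 and 50.5), a ratio of 0.478 (0.295 to 0.772), where 3.57% of 4313 genes were called lower. That call is narrow: it was past 2-fold in 3 of 8 alternatives, and sorting genes another way before clustering gave a ratio of 0.511. Markers of other cells moved in the 1 cluster of this class, where the 7 fibroblast markers summed to 6922 in Con and 18634 in TP, the 8 papilla markers to 1319 and 520, and the 6 sheath markers to 3218 and 3470, and their part in the sheath values was not tested. In papilla-like cells it had 963 and 467 UMIs (80.4 and 49.4), a ratio of 0.615 (0.549 to 0.687), which was not past 2-fold. Within that class it was 83.9 and 68.6 in C10, and 65.0 and 34.0 in C11, the cluster whose papilla markers were also lower in TP.

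Fibroblast-like cells as a class had 10.3% of 8610 genes called lower, and different clusters made up the class in each library. The log2 ratio had a median of -0.30 over the genes counted there, and of -0.039 with TMM scaling. The TMM factor of TP over Con was 0.836, and with it Angpt1 lay inside 2-fold. S9 and S10 had 31.5% and 32.0% of the class UMIs in Con, whereas S5 had 48.8% in TP. The Angpt1 level was 357 and 231 in S9, 272 and 181 in S10, 99.1 and 39.4 in S5, and 145 and 253 in S12, so S12 did not share the direction. With clusters at their Con shares the log2 ratio of Angpt1 in fibroblast-like cells was -0.59 in place of -1.05, and it was past 2-fold in 7 of 13 alternatives. Removing 15% of barcodes as doublets left 1 of 124 Con fibroblast-like cells, so that alternative says little about this class.

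Angpt4, a further Tek ligand, had 32 and 125 UMIs in fibroblast-like cells (73.3 and 28.3), a ratio of 0.386 (0.260 to 0.588). The ratio was past 2-fold in 12 of 13 alternatives. Those 12 include the stricter removal of doublets. That alternative left 1 of 124 Con fibroblast-like cells, with 0 Angpt4 UMIs, so it says little about this ratio. By cluster Angpt4 had 17 and 90 UMIs in S9 (124 and 91.8), 14 and 0 in S10, 0 and 29 in S12, and 0 and 6 in S5. With clusters at their TP shares the log2 ratio came to -0.54. In papilla-like cells its levels were 12.9 and 12.7 (155 and 120 UMIs), a ratio of 0.982 (0.767 to 1.25).

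Angpt2, which activated endothelium releases, was highest in S8, which is unnamed, with 51 Con (0.131%) and 99 TP (0.534%) cells that scored high for both smooth muscle and dermal sheath markers. Its levels there were 76.5 and 98.6 (12 and 55 UMIs). The lymphatic cluster followed at 60.8 and 67.9, and the blood cluster at 48.6 and 40.5, with intervals that overlap those of S8 in both libraries. Other clusters held Angpt2 UMIs at lower levels, with 101 and 26 UMIs in the unnamed cluster C8 led by Ntn1 and Eda (20.8 and 17.3), 53 and 11 in matrix-like cells (16.9 and 10.8), and 108 and 31 in inner root sheath-like cells (6.77 and 5.60).

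The ratios of Angpt2 within C8, matrix-like and inner root sheath-like cells were closer to 1 than the 0.470 of all kept cells, with intervals that span 1. They were 0.834 (0.520 to 1.29), 0.637 (0.300 to 1.23) and 0.828 (0.537 to 1.24) in that order. Inner root sheath-like cells were 7015 Con and 908 TP cells, and C8 was 6.67% and 2.43% of cells. Upper hair follicle-like cells lay further from 1, with 10 UMIs in each library, levels of 3.68 and 1.29 and a ratio whose interval ran from 0.131 to 0.937.

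S8 also carried receptor and ligand counts in TP. Flt1 had 3 UMIs in Con and 52 in TP there, at levels of 19.1 and 93.2, a ratio of 4.87 (1.58 to 24.4), and these came from 2 of 51 and 15 of 99 cells. Pgf was at 44.6 and 60.9. Of the 9 general endothelial markers, 8 had UMIs in S8, with summed levels of 121 and 151 against 4388 and 5073 in the blood cluster, and the 5 venous markers summed to 204 and 376. Kdr and Flt4 had 0 UMIs in S8 in both libraries.

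Kdr outside the endothelium was at levels near 10 or below in most classes. Papilla-like cells had 81 and 91 UMIs (6.76 and 9.63), a ratio of 1.42 (1.04 to 1.95), and these were 30.3% and 24.0% of all Kdr UMIs. The direction differed between the papilla clusters: C11 had 21 and 77 UMIs (3.73 and 10.9), a ratio of 2.92 (1.78 to 4.98), and C10 had 54 and 7 (9.80 and 5.71), a ratio of 0.583 (0.224 to 1.28). The endothelial markers summed to 52.2 and 50.1 in C11.

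Other genes of the pathway were read from a list of 20: ligands and their processing factors, co-receptors, oxygen sensing genes and genes of sprouting endothelium. Over all kept cells 18 were counted, 1 was called higher, 1 lower and 16 were within 2-fold, where 18.8% of all genes were called. Tie1, the partner receptor of Tek, had 47 and 126 UMIs and a ratio of 2.13 (1.52 to 3.05). Nrp2, a co-receptor for Vegfc and semaphorins, had 29419 and 16512 UMIs (276 and 123), a ratio of 0.447 (0.438 to 0.455). Epas1, an oxygen-regulated transcription factor of endothelium, lay just inside 2-fold at 1.99 (1.81 to 2.19). Ccbe1, a ligand processing factor, was at 1.76, and Vegfd, a second Flt4 ligand, at 1.65 (1.51 to 1.80). Hif1a, which drives Vegfa when oxygen is low, was at 1.50 (1.46 to 1.54), and Egln3, a hydroxylase that marks its activity, at 1.21 (1.15 to 1.26). Egln1, Arnt and Vhl, the rest of the oxygen sensing genes listed, lay below 1, at 0.906, 0.853 and 0.728. These ratios were also taken at equal cluster makeup, and the part of makeup in them was not tested. With every cluster at its Con or TP share of UMIs, the ratio was 1.00 or 0.868 for Nrp2, 1.74 or 1.58 for Tie1, 1.02 or 0.866 for Vegfd, and 1.10 or 1.03 for Hif1a, so that neither of the 2 calls was left. Epas1 came to 1.39 at the TP shares. Ccbe1, which was not called with each library's own cells, came to 0.960 at the Con shares but passed 2-fold at the TP shares, at 2.11.

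In papilla-like cells 13 were counted and Adamts3, a protease that matures Vegfc, was called higher, with 73 and 117 UMIs and a ratio of 2.03 (1.50 to 2.76), where 3.99% of all genes were called higher. In fibroblast-like cells 9 were counted and Nrp2 was called lower, with 38 and 159 UMIs and a ratio of 0.413 (0.288 to 0.605), where 10.3% of all genes were called lower. In blood and in lymphatic endothelial-like cells 5 were counted each and 0 were called, where 10.3% and 7.44% of all genes were. The values nearest to a call there were those of Epas1 (65 and 60 UMIs, 1.92, 1.33 to 2.77) and Nrp1, a co-receptor of Kdr (151 and 110 UMIs, 1.52, 1.18 to 1.95), both in the blood cluster. Nrp1 followed Flt1 rather than Kdr in its split, with 1 UMI in Con and 0 in TP in lymphatic cells.

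The genes most alike to each member in their levels were found by Pearson's r over 34 profiles, which are 17 classes in both libraries that share depth and cells, so the values are descriptions. Kdr was most like Plvap (0.943), Ptprb (0.916) and Cdh5 (0.913), all known from endothelium. Flt4 was most like Cldn5 (0.858), a tight junction gene, Emcn (0.848) and Ppp1r2 (0.847). Flt1 was most like Mecom (0.870), Exoc3l2 (0.825) and Rsad2 (0.762), and Tek was most like Casp12 (0.946), Galnt15 (0.937) and Mustn1 (0.932). Neither Flt1 nor Tek had a general endothelial marker among its 3. Angpt1 was most like Cacna2d1 (0.924) and the microfibril gene Fbn1 (0.911), and Angpt4 most like Cadps (0.940). Vegfa (Zfp637, 0.841), Vegfc (Gnao1, 0.814), Pgf (Scn2a, 0.835) and Angpt2 (Rasip1, 0.796) had lower values.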

How the data were processed

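Cells of back skin were profiled by droplet single-cell RNA-seq, with 1 library from 15 pooled mice per group. The deposited values are raw UMI counts per gene and barcode, made by the authors with Cell Ranger 8.0.1 on mm10 per the submitters' processing notes. Barcodes passed with 200 to 8000 genes and a mitochondrial share of 10% or less. The steps of DoubletFinder were rewritten, and the 7.5% of barcodes per library most like artificial doublets were removed. Libraries were joined in Seurat 5.3.0 by reciprocal PCA, in place of the anchor step of the study, on 2000 genes that left out the members and the pathway list. Louvain clusters at resolution 1 were named from marker lists, and stromal, immune and vascular clusters were clustered again. The thresholds for naming were set after the clusters were seen.

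Levels are summed counts scaled to CPM, with exact Poisson intervals. Ratios have conditional binomial intervals, and shares of cells have exact Clopper-Pearson intervals, all at 95%. UMIs remove PCR copies, but intervals and floors (3 counts) cover counting error only. With 1 library per group no test was made. Calls needed 50 UMIs and 2-fold with 1 UMI added. Members, gene lists and alternatives were chosen with earlier results of these data known. Named are all 10 members, pathway genes past or nearest to a call, the oxygen sensing genes, and at least 1 of the 3 genes most like each member, with all 3 for the receptors. On Poisson counts simulated for all kept cells, 17465 genes had enough UMIs to be counted, of which 192 had been changed 4-fold. All of the counted changed genes (100%) were recovered, and changed genes with too few UMIs were left out. Of the intervals, checked for a part of the 17465 genes, 95.3% held the true ratio. A 4-fold change lies well past the 2-fold call, and the intervals assume the same model. Both shares were thus close to fixed in advance, and variation between cells and libraries was not simulated. edgeR 4.0.16 (TMM) was used only as an alternative scaling. Promoters of 8 of the 10 members were in the RefSeq table, without Angpt1 and Angpt2. Other alternatives changed the minimum count, the pseudocount, the mitochondrial limit, the share of doublets, the resolution, the cluster makeup and the sort order of genes before clustering.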

Additional observations from a re-analysis of the deposited data

Results flagged for a closer look

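Of the 10 genes, 4 had ratios on opposite sides of 1 in different cell classes, with intervals that excluded 1 in each, and the differences between classes were not tested. By the same rule 28.1% of 17581 genes had such ratios. Vegfa was higher in TP in outer bulge-like cells (ratio 2.93) and lower in dermal papilla-like cells (0.612). Vegfc was higher in blood endothelial-like cells (5.12, from 13 and 32 UMIs, of which 5 and 7 were left with 15% of barcodes removed as doublets) and lower in dermal sheath-like cells (0.475, from 23 and 20 UMIs). Pgf was higher in dermal papilla-like cells (6.10) and lower in dermal sheath-like cells (0.109, from 5 and 1 UMIs). The sheath side of this pair was not above background: 3.79% (1.24 to 8.62) of Con sheath-like cells had a Pgf UMI, against 0 of 257 lymphocyte-like cells with an interval up to 1.43%, and after thinning 2.4% (0.498 to 6.85) of Con and 0% (0 to 3.03) of TP sheath-like cells had one. The papilla side in TP was above background before thinning, at 8.88% (7.54 to 10.4) against an interval up to 3.59%. After thinning it was not, at 3.10% (2.29 to 4.10) against up to 3.77%. Cluster C26 held a large part of its TP UMIs, and its ratio was smaller without C26. Kdr was higher in dermal papilla-like cells (1.42) and lower in dermal fibroblast-like cells (0.212, from 7 and 15 UMIs). The papilla clusters went opposite ways for Kdr, with ratios of 0.583 in C10 and 2.92 in C11, and C10 and C11 had 46.0% and 47.0% of the class UMIs in Con and 13.0% and 74.8% in TP. The thinned shares of papilla-like cells with Kdr were 0.615% (0.390 to 0.921) and 0.791% (0.409 to 1.38), which overlap. In the cluster of dermal sheath-like cells the summed level of fibroblast markers was 6922 in Con and 18634 in TP, and its part in these values was not tested. Each group is 1 library, so the intervals cover counting error only.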

How the results depend on the processing

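No paired analysis was possible because each group has 1 library, and for the same reason no replicate could be left out. The number of members called in all kept cells, 4, was 0 with a pseudocount of 0.1 per 10000 UMIs, 1 with clusters at their Con shares and 2 at their TP shares, where 2.54%, 5.94% and 6.35% of all genes were called. That pseudocount is larger than the level of each of the 4 genes in either library. None of them could pass 2-fold with it, so the 0 was fixed in advance and says nothing about these calls. The 2 called in endothelial-like cells became 1 with 15% of barcodes removed as doublets, and 1 with the blood and lymphatic clusters at their Con or at their TP shares, alternatives chosen after seeing the data, where 13%, 8.98% and 8.32% of all genes were called. The stricter doublet removal left Flt4 under 50 UMIs, with 7 Con and 13 TP UMIs in lymphatic cells and 0 and 1 in blood cells. Its ratio in endothelial-like cells was past 2-fold in 11 of 11 alternatives. The 5 pairs called in other classes became 2 of 10 counted with at least 200 UMIs, 48 of 123 with no minimum and 2 of 27 with the larger pseudocount, where 5.75%, 27.9% and 3.53% of all class and gene pairs were called. Among called ratios, the direction changed for Flt4 in all kept cells with 15% doublets removed (log2 -0.059), Tek in all kept cells at TP shares (-0.24), and Flt1 in endothelial-like cells at Con and TP shares (0.13 in both). Of 254 alternatives for 26 single ratios, 168 lay inside the counting interval of the value given, and 36 had the opposite sign, in 15 of the ratios. Of those not called as reported, they include Flt1 in all kept cells (up to log2 0.63), Kdr (down to -0.36), Vegfc (up to 0.35) and, in blood endothelial-like cells, Flt1 (down to -0.68) and Tek (down to -1.23). The lowest value of Tek rests on 22 Con and 4 TP UMIs left with 15% of barcodes removed as doublets. Pgf in dermal papilla-like cells was past 2-fold in 12 of 12 alternatives. Clustering was sensitive to the sort order of gene names in the computer's locale, found when a repeat of the pipeline gave other clusters. The order of the first run was kept, and the other, tried after seeing the data, gave 5 called pairs as well, but with Vegfa in inner root sheath-like cells (2.09) in and Angpt1 in dermal sheath-like cells (0.511) out, and it divided the dermal papilla-like cells into other clusters. Values of single clusters such as C10 and C11 therefore hold for 1 partition of the cells. The causes of the other changes were not tested. Depth limits the class values that rest on fewer than 50 UMIs, those of Flt4, Vegfc, Pgf and Angpt4 among them.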
